A study of Rattus norvegicus with 12 samples.

Results

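Hepatocellular carcinoma (HCC) tissue from rats given diethylnitrosamine (DEN) was compared with liver of rats given distilled water. All animals were adult male Sprague-Dawley rats on a basal diet. The HCC group was injected intraperitoneally with DEN at 70 mg/kg once a week for 10 weeks and killed at 23 to 24 weeks, while the time at which controls were killed is not given, so that tumour, DEN and time since treatment cannot be told apart. The comparison used 6 of the 12 arrays of the study, 3 of HCC tissue and 3 of control liver, and all 14217 genes that a probe set of a single annotated gene measured, with preference for genes whose 3 HCC arrays all lay on one side of the 3 controls. The other arrays, 3 of the hepatitis stage (DEN, killed at 5 weeks) and 3 of the cirrhosis stage (DEN, killed at 13 to 14 weeks), entered the choice of each gene's probe set, an alternative fit and, for cirrhosis, a second comparison that places the named genes and lists. The tissue label is liver for all arrays, and only the study's design text says that the last group is tumour tissue. Arrays are called control 1 to 3 and HCC 1 to 3. Whether the arrays stand for separate rats is not stated in the labels, and p-values then cover only the spread among these arrays, which may be technical.

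DEN is an alkylating carcinogen that hepatocytes activate through their own cytochrome P450 enzymes, and repeated doses lead from hepatitis through fibrosis to hepatocellular tumours. Hepatocytes make most plasma proteins and hold the enzymes of bile acid synthesis, amino acid breakdown, fatty acid oxidation and drug metabolism. Rat liver tumours are classically recognised by fetal genes such as Afp, by the placental glutathione transferase Gstp1, and by renewed cell division. Values below are the deposited linear intensities of a gene's brightest probe set, and a difference is the HCC mean minus the control mean of log2(intensity + 16), which understates the change of dim genes. Intensities of different genes are not compared, since probes differ in efficiency.

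The labelled tissue was checked against hepatocyte markers, of which 5 of 6 were measured. Albumin (Alb) read 14702, 14732 and 15006 on the control arrays and 14835, 14681 and 12686 on the HCC arrays. Except on HCC 3, its value was the largest of the array, so a change in Alb may not show. The transporter of thyroid hormone Ttr read 9803, 10255 and 9628 in control against 4915, 9169 and 5343 in HCC, a difference of -0.67 ± 0.25 (SE, adjusted p = 0.106). Cps1, the entry enzyme of the urea cycle, read 5869.5, 6209 and 6214 in control against 3334, 5571 and 5991 in HCC, a difference of -0.34 ± 0.23 (SE, adjusted p = 0.344). Apoa1, the main protein of high-density lipoprotein, read 5884, 5515 and 5411 in control against 6799, 9219 and 5812 in HCC, a difference of 0.35 ± 0.18 (SE, adjusted p = 0.209). Hnf4a, the last of the 5, read 1757, 1703 and 1493 in control against 1352, 2176 and 1649 in HCC, and its direction depended on the setting, as given below. These markers were thus bright on each HCC array, HCC 1 having the lowest Cps1, Ttr and Hnf4a. The longer list of plasma protein genes, given below, was lower on HCC 1 and 3.

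HCC arrays differed more among themselves than controls did, with a median SD per gene of 0.207 against 0.0856 on the log2 scale. Across genes, the controls correlated at 0.988 to 0.992 (Pearson's r) and the HCC arrays at 0.937 to 0.959. Along the first principal component, with 74.5% of the variance, the controls lay at -46.0 to -40.1, HCC 2 at 14.3 and HCC 1 and 3 at 58.4 and 56.7. RNA quality moved with the group. The log2 difference between 3' and 5' probe sets of the Gapdh control was 1.02, 0.909 and 0.866 on the control arrays and 1.35, 2.43 and 3.14 on HCC 1, 2 and 3. For actin the means were 2.54 ± 0.14 and 4.32 ± 0.51 (SD, n = 3 each). For both controls the exact two-sided permutation p was 0.1, the smallest that 3 against 3 arrays allow, and their part in the results below was not tested. Control 2 also held skeletal muscle RNA (Acta1 1196 against 7.21 and 17.0 on the other controls). On control 3 the lists of macrophage and MHC class II genes described below had mean log2 levels of 8.72 and 9.92. On controls 1 and 2 these levels were 7.81 and 7.68 for macrophage genes and 7.95 and 7.79 for MHC class II genes.

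Of 14217 genes, 3198 (22.5%) passed the test (limma, Benjamini-Hochberg adjusted p under 0.05), 1549 higher in HCC (10.9%) and 1649 lower (11.6%). At least 2-fold, that is a log2 difference of at least 1, the counts were 518 higher and 816 lower. On 6611 genes (46.5%) the 3 HCC arrays all lay above or all below the controls, and the 3198 called genes were among them. When the array medians were set equal, which moved the median of all differences by -0.0852, to -0.0778, 1284 genes were higher and 2100 lower, so that 37.9% of the calls were higher in place of 48.4%. The count fell most when a control was left out: it was 744, 535 and 1045 without control 1, 2 or 3, and 3174, 4479 and 2429 without HCC 1, 2 or 3. For each gene the fit pooled the spread of both groups. Leaving out a control gives the more variable HCC arrays more weight in that spread, and its part in these counts was not tested. Beside each list below, the omission counts are the numbers of its genes called without control 1, 2 and 3 and without HCC 1, 2 and 3, in that order. Each list's counts of risen and fallen genes are to be read beside the 10.9% and 11.6% of all genes. The lists were drawn up with earlier results of these data known, so these shares are a description and not a test. In all 6 of these fits 515 of the 3198 genes kept the call. All 3198 kept their sign, as genes without overlap between the groups must when 1 array is left out. HCC 2 was the HCC array nearest control in 62.4% of the risen genes (967 of 1549) and 57.6% of the fallen (949 of 1649).

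**Figure D1:**
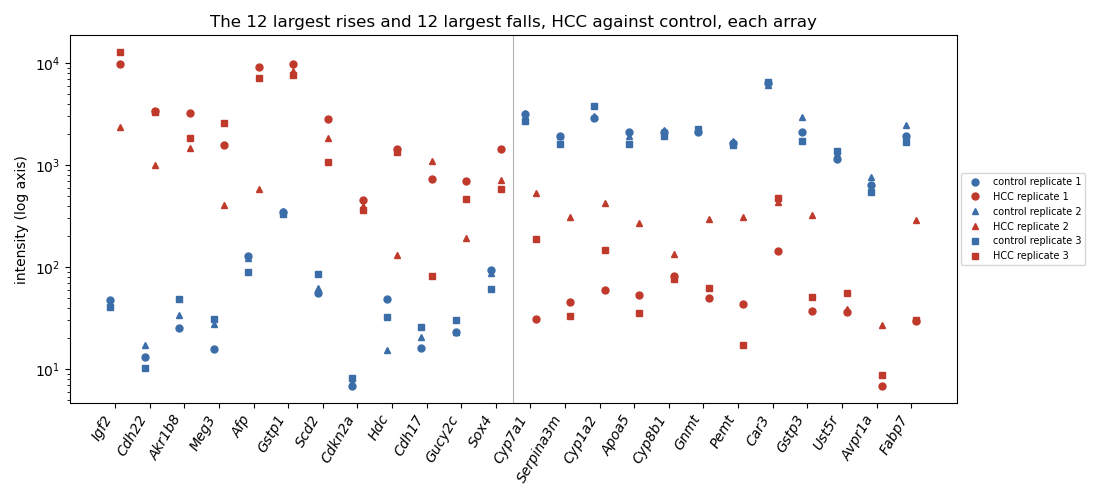
Intensity (log axis) of the 12 genes with the largest rises (left) and the 12 with the largest falls (right), 1 point per array, controls in blue and HCC in red, with the marker shape giving the replicate. Only called genes whose groups do not overlap were eligible. HCC 2 (red triangles) lies nearest the controls for genes such as Afp (576) and Cyp7a1 (534).

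Igf2 had the largest rise of all named genes, and the noncoding RNAs H19 and Meg3, also of imprinted domains, rose with a smaller difference. Igf2, the fetal insulin-like growth factor, read 47.1, 44.4 and 41.0 on the control arrays and 9839, 2343 and 12790.4 on the HCC arrays, a difference of 6.80 ± 0.64 (SE, adjusted p = 0.00472). It is called by 1 of its 4 probe sets. H19, the noncoding RNA imprinted beside Igf2, read 1169.9, 392 and 366 in control against 4041, 3004 and 4388 in HCC, a difference of 2.73 ± 0.47 (SE, adjusted p = 0.0161). Control 1 had the highest H19 of the controls, still under each HCC array. Meg3, the maternally expressed noncoding RNA of another imprinted domain, read 15.8, 27.9 and 31.1 in control against 1588, 406 and 2589 in HCC, a difference of 4.90 ± 0.68 (SE, adjusted p = 0.00998). For all 3 genes HCC 2 was the lowest of the tumour arrays. The call held whichever 1 array was left out for Igf2. The call was lost for H19 (without control 2 or 3, adjusted p up to 0.0718) and Meg3 (without control 1 or 2, adjusted p up to 0.0552).

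Afp, the fetal counterpart of albumin and the standard serum marker of this tumour, read 128, 124 and 89.4 in control against 9199, 576 and 7098 in HCC, a difference of 4.72 ± 1.07 (SE, adjusted p = 0.0322). The groups did not overlap, but HCC 2 lay an order of magnitude below the other tumour arrays. Gstp1, whose protein marks preneoplastic foci in rat liver, read 350.2, 354 and 331 in control against 9755, 8430.2 and 7696 in HCC, a difference of 4.57 ± 0.10 (SE, adjusted p = 0.000243), with closely matching tumour arrays and a ratio of means of 25.0. Akr1b8, an aldo-keto reductase of the same family as the human tumour marker AKR1B10, read 25.3, 33.9 and 48.6 in control against 3224, 1482 and 1857 in HCC, a difference of 5.35 ± 0.33 (SE, adjusted p = 0.00252). Gpc3, a fetal heparan sulfate proteoglycan used to diagnose human HCC, read 30.8, 33.1 and 21.3 in control against 1705, 39.7 and 193 in HCC. Its difference of 2.62 ± 1.22 (SE, adjusted p = 0.178) did not pass. HCC 1 was far above the controls, HCC 3 less so, and HCC 2 just above the highest control. Of 27 measured oncofetal and tumour marker genes 9 rose and 0 fell, against 10.9% and 11.6% of all genes, with a median difference of 1.09 against 0.00733 over all genes. The list's median was 2.13, 0.58 and 0.78 on HCC 1, 2 and 3 taken alone, and its omission counts were 5, 4, 4, 10, 12 and 8. Leaving out any 1 array kept the call of Gstp1 and Akr1b8. Calls that ended were those of Afp (without control 1, 2 or 3 or HCC 1 or 3, adjusted p up to 0.107).

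**Figure D2:**
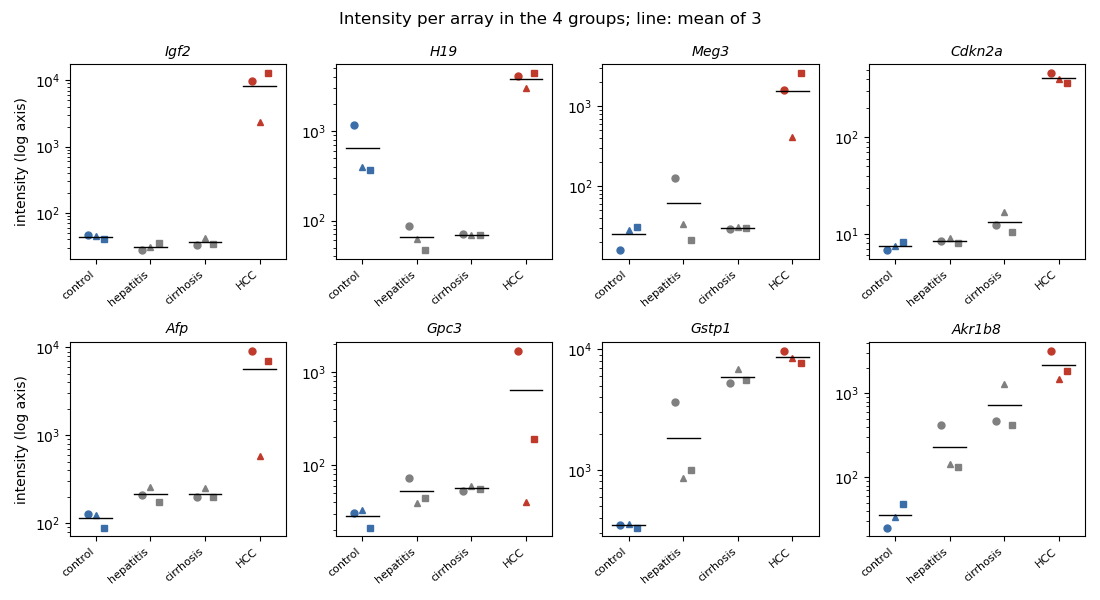
Intensity (log axis) of 8 tumour-associated genes on each of the 12 arrays by group, with the mean of 3 as a line. Igf2, H19, Meg3 and Cdkn2a stand high in HCC and not in cirrhosis, while Gstp1 and Akr1b8 are also high in cirrhosis (means 5904 and 727).

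Other genes among the 12 largest rises have roles in cell adhesion, lipid desaturation and cell cycle arrest. Cdh22, a cadherin best known from brain, read 13.3, 17.4 and 10.3 in control against 3371, 993 and 3280.3 in HCC, a difference of 6.25 ± 0.50 (SE, adjusted p = 0.00369), by 1 of its 2 probe sets. Cdh17, the liver-intestine cadherin, read 16.03, 20.4 and 26.1 in control against 727, 1091 and 81.5 in HCC, a difference of 3.56 ± 0.92 (SE, adjusted p = 0.0453), and here HCC 3 was the lowest tumour array. Gucy2c, the intestinal guanylin receptor, read 23.0, 23.0 and 30.3 in control against 692, 192 and 461 in HCC, a difference of 3.32 ± 0.45 (SE, adjusted p = 0.00951). All 3 were dim on every control. Scd2, a stearoyl-CoA desaturase, read 55.5, 62.8 and 86.2 in control against 2832, 1855 and 1069 in HCC, a difference of 4.43 ± 0.37 (SE, adjusted p = 0.00394), whereas Scd, the liver's main desaturase, fell. Hdc, which makes histamine, read 49.1, 15.3 and 32.5 in control against 1448, 130.0 and 1339 in HCC, a difference of 3.84 ± 0.96 (SE, adjusted p = 0.0412). Sox4, a transcription factor of progenitor cells, read 93.4, 88.0 and 61.5 in control against 1439, 707 and 583 in HCC, a difference of 3.16 ± 0.36 (SE, adjusted p = 0.00662). With 1 array removed at a time the call held for Cdh22, Scd2 and Sox4. The call ended for Cdh17 (without control 1, 2 or 3 or HCC 1 or 2, adjusted p up to 0.14), Gucy2c (without control 1 or 2, adjusted p up to 0.0551) and Hdc (without control 1, 2 or 3 or HCC 1 or 3, adjusted p up to 0.14).

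About as many mitosis and replication genes rose as missed the threshold. Division is driven by cyclins and cyclin-dependent kinases, which start DNA replication at origins loaded with the Mcm helicase and later drive mitosis. Of 38 mitosis and cytokinesis genes 20 rose and 0 fell, with a median of 1.26, and of 27 replication genes 14 rose and 1 fell, with a median of 1.11. These medians stand beside 0.00733 over all genes, and the counts beside 10.9% of all genes higher. Taken alone, HCC 1, 2 and 3 gave medians of 1.72, 0.67 and 1.46 for mitosis and 1.39, 0.54 and 1.26 for replication. These counts depended on single arrays, with omission counts 1, 0, 2, 9, 34 and 3, where a 0 went with 23 genes at an unadjusted p under 0.05 for mitosis, and omission counts 1, 1, 2, 7, 25 and 8 for replication. The order of the arrays by Gapdh difference was HCC 1, 2 and 3 (1.35, 2.43 and 3.14), and its part in these medians was not tested.

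Ccna2, the cyclin of S phase and G2, read 15.1, 27.3 and 34.4 in control against 332, 103 and 418 in HCC, a difference of 2.68 ± 0.52 (SE, adjusted p = 0.0212). Cdk1, the mitotic kinase, read 41.6, 70.7 and 97.6 in control against 505, 169 and 418 in HCC, a difference of 2.07 ± 0.46 (SE, adjusted p = 0.0305). Mki67, the proliferation antigen Ki-67, read 43.3, 52.7 and 103 in control against 513, 175 and 612 in HCC, a difference of 2.34 ± 0.52 (SE, adjusted p = 0.0308). In these 3 genes HCC 2 was the lowest tumour array, and even so above each control. Cdc20, which activates the anaphase-promoting complex, read 61.6, 86.2 and 87.1 in control against 471, 298 and 874 in HCC, a difference of 2.46 ± 0.39 (SE, adjusted p = 0.0134). Ect2, a cytokinesis factor, read 26.5, 47.1 and 73.7 in control against 415, 122 and 293 in HCC, a difference of 2.09 ± 0.49 (SE, adjusted p = 0.0351). Among replication genes, the helicase subunit Mcm4 read 98.7, 85.7 and 140.4 in control against 658, 256 and 445 in HCC, a difference of 1.84 ± 0.36 (SE, adjusted p = 0.0218). Mcm5, of the same helicase, read 56.8, 56.5 and 91.8 in control against 346, 134 and 270.0 in HCC, a difference of 1.59 ± 0.36 (SE, adjusted p = 0.0322). The licensing factor Cdt1 read 15.7, 21.9 and 32.7 in control against 114, 42.6 and 126 in HCC, a difference of 1.40 just inside the threshold. The one replication gene that fell was Ung, the uracil-DNA glycosylase of base excision repair, at 547, 503 and 467 in control against 198, 172 and 181 in HCC, a difference of -1.39 ± 0.0918 (SE, adjusted p = 0.00291). The call survived each single omission for Ung. Calls were lost for Ccna2 and Cdc20 (without control 1, 2 or 3, adjusted p up to 0.0841), Cdk1, Mki67, Ect2, Mcm5 and Cdt1 (without control 1, 2 or 3 or HCC 1 or 3, adjusted p up to 0.157) and Mcm4 (without control 1, 2 or 3 or HCC 3, adjusted p up to 0.0915).

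Promoters of the cell cycle genes were read from RefSeq (GRCr8), as 250 bases before to 50 after the start site, where 33 of 38 mitosis genes and 26 of 27 replication genes matched. In mitotic promoters the CCAAT box and the cell cycle homology region are the textbook elements, and in replication promoters the E2F site. CCAAT, searched on both strands, was in 25 of 33 mitosis promoters (75.8%) against 37.7% of all 27457 promoters, and TTTGAA or TTCGAA in 22 (66.7%) against 19.5%. Both kinds were in 19 (57.6%) against 7.83%. TTTCGCGC, TTTGGCGC, TTTCCCGC or TTTGCCGC was in 13 of 26 replication promoters (50.0%) against 2.25%. Among called mitosis genes with a promoter, CCAAT was in 13 of 17 and TTTGAA or TTCGAA in 11 of 17. The replication motifs were in 9 of 14 called replication genes. Matches were thus not confined to called genes. TTCGAA reads the same on both strands, and a CCAAT match can overlap TTTGAA, as in Mki67. The promoter of Ung, which fell, also held such a match. Shown are 2 mitosis and 2 replication promoters of genes described above, to let the spacing of the matches be seen. Capitals mark the mitosis motifs in Cdc20 and Mki67 and the replication motifs in Mcm5 and Cdt1, on either strand. A match describes only the letters of this window.
Cdc20 (chr5:137255750-137256049, minus strand): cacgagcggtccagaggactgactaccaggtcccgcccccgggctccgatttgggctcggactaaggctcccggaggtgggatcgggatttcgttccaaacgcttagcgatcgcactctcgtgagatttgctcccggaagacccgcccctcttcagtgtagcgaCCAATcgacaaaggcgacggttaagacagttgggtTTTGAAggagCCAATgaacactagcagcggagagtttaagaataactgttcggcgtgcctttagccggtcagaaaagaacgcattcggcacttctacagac
Mki67 (chr1:199952544-199952843, minus strand): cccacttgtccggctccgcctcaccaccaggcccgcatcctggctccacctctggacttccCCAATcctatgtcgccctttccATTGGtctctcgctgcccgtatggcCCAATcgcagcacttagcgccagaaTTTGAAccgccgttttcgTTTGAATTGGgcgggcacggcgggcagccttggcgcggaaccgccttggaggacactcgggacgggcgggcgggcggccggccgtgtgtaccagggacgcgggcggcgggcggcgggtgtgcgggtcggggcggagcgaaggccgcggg
Mcm5 (chr19:13488563-13488862, plus strand): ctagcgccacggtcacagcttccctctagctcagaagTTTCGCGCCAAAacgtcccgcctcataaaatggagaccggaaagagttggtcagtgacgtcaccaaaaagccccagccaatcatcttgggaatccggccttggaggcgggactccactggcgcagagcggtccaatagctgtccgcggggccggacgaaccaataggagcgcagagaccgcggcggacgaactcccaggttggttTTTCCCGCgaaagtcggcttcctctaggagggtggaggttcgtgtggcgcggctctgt
Cdt1 (chr19:67528999-67529298, plus strand): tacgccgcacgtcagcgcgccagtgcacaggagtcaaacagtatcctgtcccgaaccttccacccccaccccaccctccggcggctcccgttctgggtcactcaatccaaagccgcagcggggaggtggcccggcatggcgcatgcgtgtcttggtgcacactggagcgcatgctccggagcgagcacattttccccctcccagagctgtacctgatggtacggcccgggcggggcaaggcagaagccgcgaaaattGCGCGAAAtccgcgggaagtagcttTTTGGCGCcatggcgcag

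Regulators of the G1 phase moved unevenly. Of 19 G1 cyclins and CDK inhibitors 5 rose and 0 fell, beside 10.9% and 11.6% of all genes. The list's omission counts were 1, 1, 1, 6, 7 and 5. Cdkn2a, whose locus encodes the inhibitor p16 and the p53 activator ARF, was dim on the controls (6.80, 7.49 and 8.21) and read 458, 399 and 361 in HCC, a difference of 4.16 ± 0.10 (SE, adjusted p = 0.000243). All 3 tumour arrays were alike, HCC 2 included. Ccne1, the cyclin of S phase entry, read 33.1, 32.4 and 48.8 in control against 188, 97.5 and 429 in HCC, a difference of 2.02 ± 0.50 (SE, adjusted p = 0.0401), and its relative Ccne2 rose by 1.07 (adjusted p = 0.0195). Myc, the growth transcription factor, read 267, 208 and 336 in control against 1090.5, 592 and 609 in HCC, a difference of 1.41 ± 0.29 (SE, adjusted p = 0.0251). Ccnd1, the growth factor-responsive cyclin, overlapped between the groups at 295, 447 and 421 in control against 419, 361 and 291 in HCC, and its difference of -0.11 (adjusted p = 0.753) changed sign with the setting, being 0.06 with the mean of all probe sets and 0.03 after quantile normalization. Every omission of 1 array kept the call of Cdkn2a. Omitting 1 array ended the call of Ccne1 (without control 1, 2 or 3 or HCC 1, adjusted p up to 0.134) and Ccne2 and Myc (without control 1, 2 or 3, adjusted p up to 0.0953).

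Targets of p53, the transcription factor that halts dividing cells after DNA damage, moved in both directions. Of 22 measured, 1 rose and 5 fell, beside 10.9% and 11.6% of all genes, with a median of -0.0481 and omission counts 1, 1, 3, 7, 5 and 4. Mdm2, the p53 ubiquitin ligase, read 143, 128 and 146 in control against 239, 343 and 318 in HCC, a difference of 1.01 ± 0.15 (SE, adjusted p = 0.011). Cdkn1a, the p21 inhibitor, read 242, 198 and 89.1 in control against 255, 315 and 419 in HCC, a difference of 0.91 ± 0.38 (SE, adjusted p = 0.138), which did not pass, control 3 being the lowest. Ei24 fell by 1.27 (1416, 1493 and 1265 against 492, 735 and 497, adjusted p = 0.00998). Sesn1, a stress-induced inhibitor of growth signalling, also fell by 1.27 (103, 109 and 84.3 against 27.9, 35.7 and 30.6, adjusted p = 0.00444). Gadd45a fell by 0.67 (adjusted p = 0.0345). Omitting arrays 1 by 1 kept the call of Sesn1. The threshold was missed for Mdm2 and Ei24 (without control 1 or 2, adjusted p up to 0.0606) and Gadd45a (without control 1, 2 or 3 or HCC 2 or 3, adjusted p up to 0.122).

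Genes of the antioxidant response rose in part. NRF2 is the transcription factor that induces glutathione synthesis and quinone and thioredoxin reduction under oxidative stress. Of 25 listed targets 9 rose and 1 fell, with a median of 0.61 (0.81, 0.25 and 0.59 on HCC 1, 2 and 3 alone) and omission counts 2, 2, 3, 7, 17 and 7. Srxn1, sulfiredoxin, read 193, 155 and 117 in control against 952, 896 and 1546 in HCC, a difference of 2.73 ± 0.27 (SE, adjusted p = 0.00495). Slc7a11, the cystine importer, read 48.8, 46.8 and 46.3 in control against 379, 102 and 351 in HCC, a difference of 2.03 ± 0.48 (SE, adjusted p = 0.0357). Txnrd1, thioredoxin reductase, read 573, 537 and 449 in control against 2098, 971 and 1561 in HCC, a difference of 1.48 ± 0.29 (SE, adjusted p = 0.0215). Nqo1, a quinone reductase, read 231, 603 and 557 in control against 1614, 1000.0 and 1285 in HCC, a difference of 1.54 ± 0.40 (SE, adjusted p = 0.0452), with control 1 the lowest. Each of these was above all controls on every HCC array. The exception was Me1, malic enzyme, which also serves lipid synthesis and fell by 1.04 (879.9, 967 and 830.1 against 313, 619 and 394, adjusted p = 0.0366). The core TGACNNNGC of the antioxidant element was in 6 of 22 promoters of the list (27.3%) against 12.2% of all. Among the 9 called genes with a promoter 2 held it, Ugdh, which rose by 0.998, and Me1, which fell. The other holders, Gclm, Abcc2, Gpx2 and Nfe2l2, were not called, with differences of -0.47, -1.66, 3.32 and -0.34. The call held whichever 1 array was left out for Srxn1. The call was lost for Slc7a11, Nqo1 and Me1 (without control 1, 2 or 3 or HCC 1 or 3, adjusted p up to 0.129) and Txnrd1 (without control 1, 2 or 3 or HCC 3, adjusted p up to 0.0839).

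Conjugating and aldehyde-clearing enzymes split by isoform. Of 20 glutathione transferases 3 rose and 9 fell (median -0.49, with omission counts 5, 4, 6, 11, 14 and 9), and of 27 aldo-keto reductases and aldehyde dehydrogenases 3 rose and 14 fell (median -1.05, with omission counts 8, 8, 13, 16, 17 and 17). While Gstp1 rose, Gstp3 of the same class read 2104, 2959 and 1723 in control against 37.1, 325 and 50.4 in HCC, a difference of -4.39 ± 0.74 (SE, adjusted p = 0.0151). Gstm2, of the mu class, read 2078, 1825 and 1671 in control against 264, 606 and 51.7 in HCC, a difference of -3.04 ± 0.79 (SE, adjusted p = 0.0464). Gstm7 fell by 2.43 (adjusted p = 0.00868), and Gstz1, which also acts in tyrosine breakdown, by 2.43 (adjusted p = 0.00566). Paralogs of these families are near-identical in stretches, and probe sets may share signal, as may those of the Cyp2c, Ugt2b and Serpina3 families. In contrast to Akr1b8, Akr1c3 fell from 117, 162 and 158 to 8.86, 29.1 and 17.7, a difference of -2.26 ± 0.24 (SE, adjusted p = 0.00593). Aldh1l1, of folate metabolism, read 3153, 3373 and 3119 in control against 472, 841 and 685 in HCC, a difference of -2.28 ± 0.21 (SE, adjusted p = 0.00454), and Aldh1a1, the retinal dehydrogenase, fell by 2.32 (adjusted p = 0.0256). Leaving out any 1 array kept the call of Gstz1, Akr1c3 and Aldh1l1. Calls that ended were those of Gstp3 and Aldh1a1 (without control 1, 2 or 3, adjusted p up to 0.0972), Gstm2 (without control 1, 2 or 3 or HCC 1, adjusted p up to 0.142) and Gstm7 (without control 2, adjusted p up to 0.0527).

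**Figure D3:**
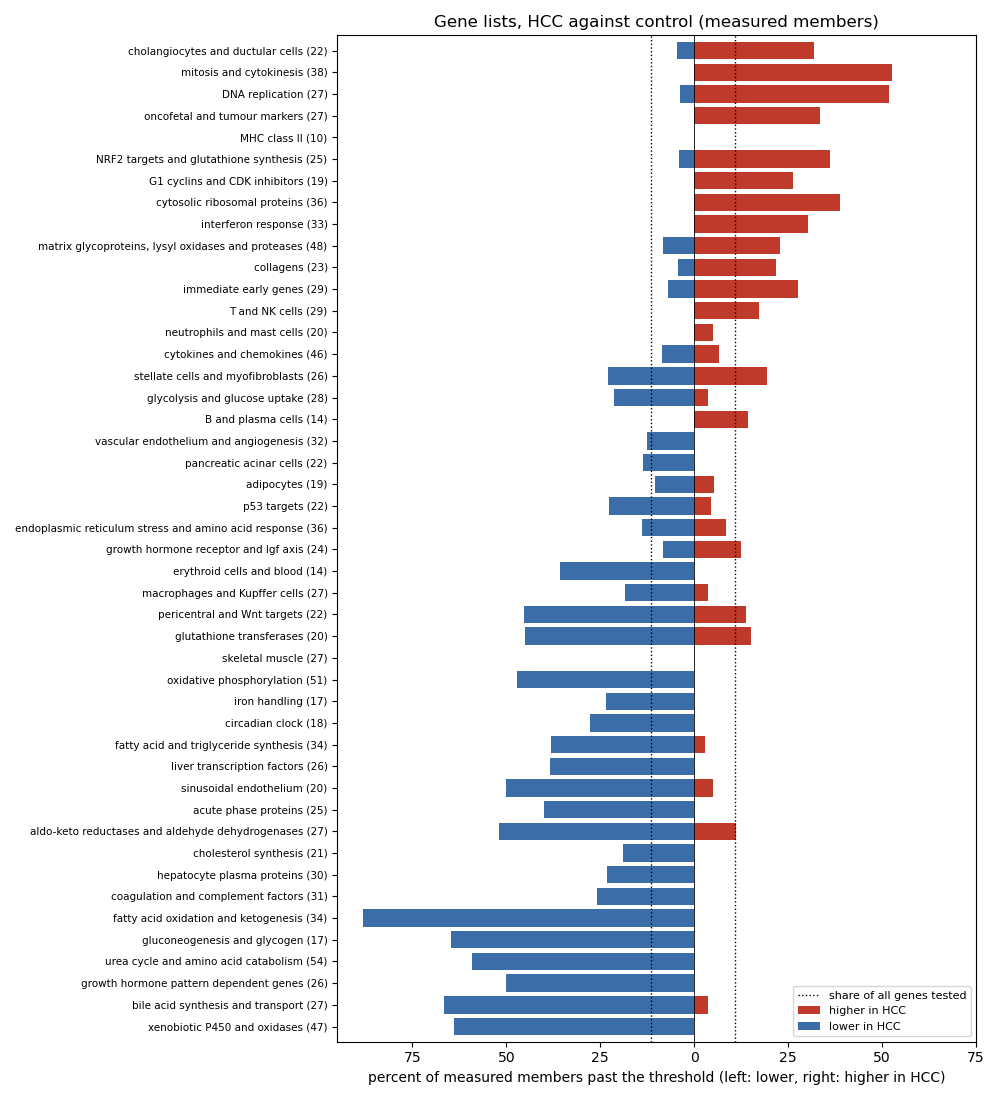
Share of each gene list's measured members (number in parentheses) that were called lower (blue, left) or higher (red, right) in HCC, ordered by the list's median difference. Dotted lines mark the shares of all genes, 11.6% lower and 10.9% higher. Fatty acid oxidation reaches furthest left (30 of 34 lower) and mitosis furthest right (20 of 38 higher).

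Enzymes of drug metabolism fell in most members. Of 47 xenobiotic P450s and oxidases 0 rose and 30 fell, beside 11.6% of all genes lower, with a median of -2.33 (-3.08, -1.27 and -2.69 on the 3 HCC arrays alone) and omission counts 12, 9, 13, 24, 40 and 21. Cyp1a2, the caffeine-metabolising P450, read 2902, 3025 and 3824 in control against 59.1, 421 and 148 in HCC, a difference of -4.21 ± 0.63 (SE, adjusted p = 0.012). Cyp2e1, the P450 that activates DEN itself, read 5368, 5229 and 4775 in control against 306, 762 and 319 in HCC, a difference of -3.55 ± 0.36 (SE, adjusted p = 0.00502). Cyp2c11, the male-specific P450, read 1861, 3551 and 2953 in control against 115, 536 and 217 in HCC, a difference of -3.40 ± 0.56 (SE, adjusted p = 0.0145). HCC 2 was the highest tumour array for each. Ugt2b1, a glucuronosyltransferase, fell by 3.79 (adjusted p = 0.0178). With 1 array removed at a time the call held for Cyp2e1. The call ended for Cyp1a2, Cyp2c11 and Ugt2b1 (without control 1, 2 or 3, adjusted p up to 0.0775).

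Genes that depend on the pattern of growth hormone fell in part. Of 26 measured 0 rose and 13 fell, with a median of -1.76 and omission counts 5, 4, 6, 11, 18 and 10. The hydroxyacid oxidase Hao2 read 1977, 2402 and 2144 in control against 104, 157 and 298 in HCC, a difference of -3.55 ± 0.35 (SE, adjusted p = 0.00495). Cyp17a1, a steroid hydroxylase, read 852, 1043 and 498 in control against 14.3, 70.4 and 37.1 in HCC, a difference of -3.91 ± 0.46 (SE, adjusted p = 0.00694), and the organic anion importer Slco1a1 fell by 3.29 (adjusted p = 0.0179). The growth hormone receptor Ghr read 1179, 1197 and 1197 in control against 94.4, 437 and 208 in HCC, a difference of -2.43 ± 0.50 (SE, adjusted p = 0.0247). On the list of the growth hormone receptor and Igf axis 3 rose and 2 fell of 24, near the shares of all genes, with omission counts 2, 2, 2, 4, 12 and 3. The risen members besides Igf2 were Igfbp5, an Igf-binding protein, at 18.5, 27.3 and 17.5 in control against 136, 98.7 and 196 in HCC, a difference of 2.07 ± 0.24 (SE, adjusted p = 0.00705), and Igf2r, which clears Igf2, with a difference of 0.89 (adjusted p = 0.0476). The call survived each single omission for Hao2, Cyp17a1 and Igfbp5. Calls were lost for Slco1a1 (without control 1, 2 or 3, adjusted p up to 0.0793), Ghr (without control 1, 2 or 3 or HCC 3, adjusted p up to 0.0951) and Igf2r (without control 1, 2 or 3 or HCC 1 or 2, adjusted p up to 0.147).

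Genes of bile acid synthesis fell at several steps. Bile acids are made from cholesterol by Cyp7a1, the rate-limiting enzyme, with Cyp8b1 setting the share of cholic acid, and are taken up again by Slc10a1. Of 27 genes of synthesis and transport 1 rose and 18 fell, with a median of -2.07 (-2.72, -1.29 and -2.91 on the HCC arrays alone) and omission counts 7, 5, 7, 16, 23 and 15. Cyp7a1 read 3167, 3214 and 2728 in control against 31.2, 534 and 190.4 in HCC, a difference of -4.12 ± 0.87 (SE, adjusted p = 0.0266). Cyp8b1 read 2123, 2201 and 1922 in control against 82.6, 133 and 76.8 in HCC, a difference of -4.24 ± 0.20 (SE, adjusted p = 0.00203), and its 3 tumour arrays were close together. Slc10a1 read 3951, 4147 and 4088 in control against 155, 1044 and 103 in HCC, a difference of -3.87 ± 0.82 (SE, adjusted p = 0.027). Nr0b2, the bile acid-induced repressor of Cyp7a1, also fell, from 801, 1030.0 and 885 to 33.4, 149 and 19.4, a difference of -3.79 ± 0.58 (SE, adjusted p = 0.0124). The member that rose was Abcc3, an exporter to blood, at 252, 226 and 207 in control against 618, 504 and 586 in HCC, a difference of 1.26 ± 0.11 (SE, adjusted p = 0.0044). Every omission of 1 array kept the call of Cyp8b1 and Abcc3. Omitting 1 array ended the call of Cyp7a1 (without control 1, 2 or 3 or HCC 3, adjusted p up to 0.1), Slc10a1 (without control 1, 2 or 3 or HCC 1 or 3, adjusted p up to 0.1) and Nr0b2 (without control 1, 2 or 3, adjusted p up to 0.0634).

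Genes of amino acid breakdown fell in part. Of 54 genes of the urea cycle and amino acid catabolism 0 rose and 32 fell, with a median of -1.66 and omission counts 16, 14, 20, 31, 47 and 25. Gnmt, which disposes of surplus S-adenosylmethionine, read 2123, 2217 and 2272 in control against 49.5, 295 and 63.0 in HCC, a difference of -4.24 ± 0.60 (SE, adjusted p = 0.0104). Bhmt, which remethylates homocysteine, read 2118, 2664 and 1703 in control against 53.4, 296 and 178 in HCC, a difference of -3.73 ± 0.56 (SE, adjusted p = 0.0122). Kynu, of tryptophan breakdown, fell by 3.57 (adjusted p = 0.00675), and Agxt, which detoxifies glyoxylate, fell by 3.44 (adjusted p = 0.00573). Pemt, which makes phosphatidylcholine by methylation, was outside the list and read 1629.8, 1702 and 1564 in control against 43.5, 308 and 17.1 in HCC, a difference of -4.26 ± 0.83 (SE, adjusted p = 0.0218). Cps1, of the same list, did not pass, as given above. Omitting arrays 1 by 1 kept the call of Kynu and Agxt. The threshold was missed for Gnmt and Bhmt (without control 1 or 2, adjusted p up to 0.0633) and Pemt (without control 1, 2 or 3 or HCC 1, adjusted p up to 0.088).

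Fatty acid oxidation had the highest share of fallen genes of the 46 lists. Of 34 genes of oxidation and ketogenesis 0 rose and 30 fell, with a median of -1.37, close to it on each tumour array (-1.53, -1.25 and -1.58), and omission counts 16, 15, 21, 27, 30 and 25. Ehhadh, the peroxisomal bifunctional enzyme, read 1061, 1107 and 1010.3 in control against 63.9, 139.6 and 48.8 in HCC, a difference of -3.53 ± 0.33 (SE, adjusted p = 0.00455). Bdh1, the last enzyme of ketone body synthesis, read 1056, 1132 and 952 in control against 222, 181 and 129.6 in HCC, a difference of -2.48 ± 0.19 (SE, adjusted p = 0.00359). The omega-hydroxylases Cyp4a1 and Cyp4a3 fell, with differences of -3.91 (adjusted p = 0.0141) and -3.24 (adjusted p = 0.00416). Oxidative phosphorylation genes fell in part, with 0 risen and 24 fallen of 51, a median of -0.54 and omission counts 7, 4, 9, 34, 25 and 24. Ndufa8 of complex I read 1246, 1361 and 1343 in control against 364, 292 and 155 in HCC, a difference of -2.30 ± 0.30 (SE, adjusted p = 0.00881), here with HCC 3 lowest. Uqcrc2 of complex III fell by 1.91 (adjusted p = 0.00866), Ndufb8 of complex I fell by 1.59 (adjusted p = 0.00489) and Atp5pb of the ATP synthase fell by 1.82 (adjusted p = 0.0422). The call held whichever 1 array was left out for Ehhadh, Bdh1, Cyp4a3 and Ndufb8. The call was lost for Cyp4a1 (without control 1, 2 or 3, adjusted p up to 0.0689), Ndufa8 and Uqcrc2 (without control 2, adjusted p up to 0.053) and Atp5pb (without control 1, 2 or 3 or HCC 2, adjusted p up to 0.138).

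Lipid synthesis genes fell in smaller shares, beside 11.6% of all genes lower. Of 34 genes of fatty acid and triglyceride synthesis 1 rose and 13 fell (median -0.73, with omission counts 4, 4, 7, 11, 18 and 11), and of 21 cholesterol synthesis genes 0 rose and 4 fell (median -1.06, with omission counts 0, 0, 0, 3, 15 and 4, where a 0 went with 4 to 8 genes at an unadjusted p under 0.05). Thrsp, a nuclear protein tied to lipogenesis, read 2766, 2632 and 3059.6 in control against 80.9, 698 and 60.4 in HCC, a difference of -4.02 ± 0.86 (SE, adjusted p = 0.0276). Scd read 3637, 4227 and 3201 in control against 268, 929 and 41.0 in HCC, a difference of -3.89 ± 1.00 (SE, adjusted p = 0.044), opposite to Scd2, the one list member that rose. Lpin1, a phosphatidate phosphatase, read 1593, 1746 and 1822 in control against 129, 264 and 106 in HCC, a difference of -3.35 ± 0.32 (SE, adjusted p = 0.00473). Apoa5, which promotes triglyceride clearance, read 2101, 1936 and 1594 in control against 53.5, 268 and 35.4 in HCC, a difference of -4.23 ± 0.65 (SE, adjusted p = 0.0126). Fabp7, a fatty acid-binding protein, read 1919, 2493 and 1686 in control against 29.6, 288 and 30.5 in HCC, a difference of -4.55 ± 0.78 (SE, adjusted p = 0.0158). Of the cholesterol enzymes, Tm7sf2 fell by 1.87, Hsd17b7 fell by 1.87, Mvk fell by 1.07 and the carrier Stard4 fell by 0.78 (adjusted p = 0.0117 to 0.0326). Leaving out any 1 array kept the call of Scd2 and Lpin1. Calls that ended were those of Thrsp, Tm7sf2 and Hsd17b7 (without control 1, 2 or 3 or HCC 1 or 3, adjusted p up to 0.116), Scd (without control 1, 2 or 3 or HCC 1, adjusted p up to 0.141), Apoa5 (without control 1 or 2, adjusted p up to 0.0634) and Fabp7, Mvk and Stard4 (without control 1, 2 or 3, adjusted p up to 0.0744).

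Genes of glucose production fell in most members and those of glycolysis in fewer, beside 11.6% of all genes lower and 10.9% higher. Of 17 genes of gluconeogenesis and glycogen 0 rose and 11 fell (median -1.53, with omission counts 4, 4, 4, 8, 12 and 8), and of 28 of glycolysis and glucose uptake 1 rose and 6 fell (median 0.00756, with omission counts 1, 1, 2, 11, 11 and 5). Fbp1, of gluconeogenesis, read 4739, 5669 and 4912 in control against 344, 995 and 470.4 in HCC, a difference of -3.18 ± 0.38 (SE, adjusted p = 0.0073). Slc37a4, which carries glucose-6-phosphate into the endoplasmic reticulum, read 2465, 2463 and 2258 in control against 367, 524 and 373 in HCC, a difference of -2.48 ± 0.15 (SE, adjusted p = 0.00252). Ppp1r3b, a glycogen-targeting phosphatase subunit, fell by 2.84 (adjusted p = 0.0247). Among the 6 glycolysis genes that fell was Pklr, liver pyruvate kinase, at 685, 822 and 699 in control against 76.1, 189 and 105 in HCC, a difference of -2.51 ± 0.30 (SE, adjusted p = 0.00721). Pfkfb1 and Gckr, regulators of glycolysis, and the fructose kinase Khk fell, with differences of -2.78, -2.75 and -2.41 (adjusted p = 0.0124 to 0.0252). Aldoa, the aldolase of muscle and fetal liver, rose from 724, 825 and 1017 to 4251, 1548 and 2131, a difference of 1.49 ± 0.38 (SE, adjusted p = 0.0444). With 1 array removed at a time the call held for Fbp1, Slc37a4 and Pklr. The call ended for Ppp1r3b, Pfkfb1 and Aldoa (without control 1, 2 or 3 or HCC 3, adjusted p up to 0.143), Gckr (without control 1 or 2, adjusted p up to 0.0634) and Khk (without control 1, 2 or 3, adjusted p up to 0.0671).

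Secreted hepatocyte products were lower on HCC 1 and 3 than on HCC 2. Plasma protein genes had 0 risen and 7 fallen of 30 (median -1.14, -1.48, -0.28 and -1.62 on the 3 arrays alone), coagulation and complement factors 0 risen and 8 fallen of 31 (median -1.29, -1.58, -0.42 and -1.67), and acute phase proteins 0 risen and 10 fallen of 25 (median -0.998, -0.89, -0.45 and -1.69). Their omission counts were 2, 2, 3, 3, 27 and 3 for plasma proteins, 2, 1, 3, 4, 25 and 7 for coagulation and complement, and 1, 0, 1, 6, 15 and 8, where a 0 went with 13 genes at an unadjusted p under 0.05 for acute phase proteins. Serpina6, which carries corticosteroids, read 2416, 2440.1 and 2210.2 in control against 386, 173 and 148 in HCC, a difference of -3.35 ± 0.35 (SE, adjusted p = 0.00546). Here HCC 1 was the highest tumour array. The mannose-binding lectin Mbl2 read 2606, 2791 and 2578 in control against 138, 691 and 102 in HCC, a difference of -3.51 ± 0.68 (SE, adjusted p = 0.0212), and Mbl1 fell by 2.64 (adjusted p = 0.00884). Serpina3m, a protease inhibitor, read 1920.2, 1938 and 1603 in control against 45.6, 309 and 32.8 in HCC, a difference of -4.20 ± 0.73 (SE, adjusted p = 0.0164). The pentraxin Crp read 2473, 2895 and 2771 in control against 112, 664 and 75.6 in HCC, a difference of -3.77 ± 0.76 (SE, adjusted p = 0.0235). Apcs, its relative, fell by 3.16 and the interleukin-6 receptor Il6r fell by 2.06 (adjusted p = 0.046 and 0.0127). Pon1, Itih3, C6 and C4bpb, also secreted, fell, with differences of -2.91, -1.38, -2.24 and -1.95. The call survived each single omission for Serpina6. Calls were lost for Mbl2, Serpina3m and Il6r (without control 1, 2 or 3, adjusted p up to 0.087), Mbl1 (without control 2, adjusted p up to 0.0531), Crp, Apcs, Pon1, Itih3 and C4bpb (without control 1, 2 or 3 or HCC 1 or 3, adjusted p up to 0.14) and C6 (without control 1 or 2, adjusted p up to 0.0634).

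Transcription factors of hepatocyte identity had 0 risen and 10 fallen of 26, with a median of -0.74 and omission counts 4, 1, 3, 6, 15 and 7. Cebpa, which restrains hepatocyte division, read 1158, 856 and 796 in control against 249.6, 562 and 200.2 in HCC, a difference of -1.55 ± 0.39 (SE, adjusted p = 0.0431), by all 5 of its probe sets. Nr1i3, the xenobiotic receptor CAR, read 238, 351 and 344 in control against 38.8, 71.6 and 81.5 in HCC, a difference of -2.05 ± 0.27 (SE, adjusted p = 0.00866). Creb3l3, a factor of lipid and acute phase genes, fell by 1.93 (adjusted p = 0.0268). Hnf4a, the central hepatocyte regulator, overlapped between the groups at 1757, 1703 and 1493 in control against 1352, 2176 and 1649 in HCC, with a difference of 0.04 (adjusted p = 0.911). With the mean of its 3 probe sets the difference was -0.54 with an adjusted p of 0.0343, and with equal medians -0.05, so its direction depends on the setting. Pericentral and Wnt target genes had 3 risen and 10 fallen of 22, with omission counts 2, 2, 3, 11, 14 and 9. Glul, the pericentral glutamine synthetase, read 1280.2, 1415 and 1426 in control against 835, 609.6 and 550.3 in HCC, a difference of -1.05 ± 0.17 (SE, adjusted p = 0.0133), and Lect2 fell by 3.96 (adjusted p = 0.00355). Gulo, the last enzyme of vitamin C synthesis, fell by 4.01 (adjusted p = 0.0148). Tcf7, a Wnt effector, rose by 0.76 (adjusted p = 0.0314). Every omission of 1 array kept the call of Lect2. Omitting 1 array ended the call of Cebpa, Creb3l3 and Tcf7 (without control 1, 2 or 3 or HCC 1 or 3, adjusted p up to 0.14), Nr1i3 (without control 2, adjusted p up to 0.0525) and Glul and Gulo (without control 1, 2 or 3, adjusted p up to 0.0712).

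Further large falls were Avpr1a, the vasopressin receptor, at 630.1, 762 and 539 in control against 6.90, 26.96 and 8.80 in HCC, a difference of -4.49 ± 0.27 (SE, adjusted p = 0.00252), and Car3, a carbonic anhydrase, at 6388, 6128 and 6516 in control against 143, 435 and 470.3 in HCC, a difference of -4.28 ± 0.44 (SE, adjusted p = 0.00547). Ust5r, an organic anion transporter of the Slc22 family, read 1146, 1277 and 1369 in control against 36.4, 38.6 and 55.3 in HCC, a difference of -4.44 ± 0.14 (SE, adjusted p = 0.000829). In these 3 genes every tumour array was far below the controls. Omitting arrays 1 by 1 kept the call of Avpr1a, Car3 and Ust5r.

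**Figure D4:**
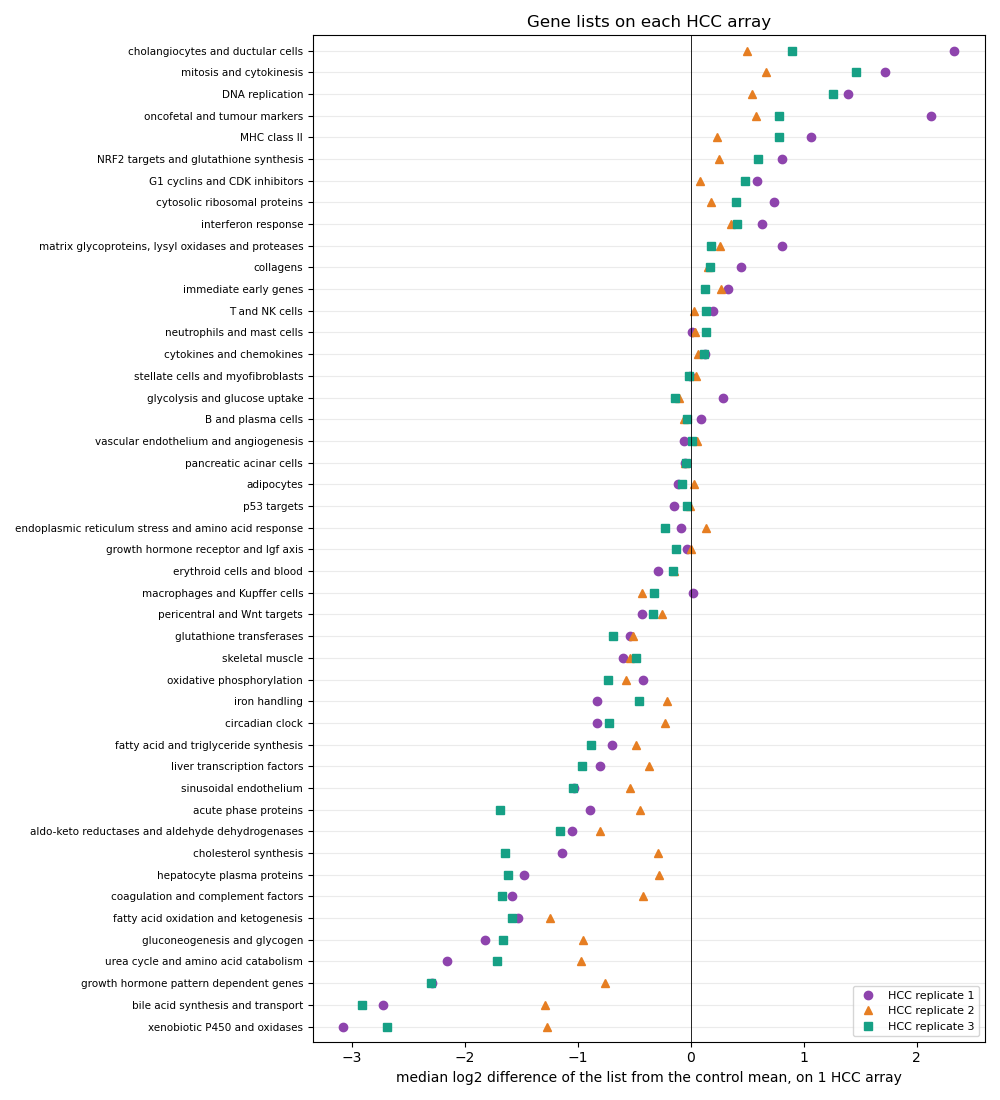
Median log2 difference of each list from the control mean on HCC 1 (circles), HCC 2 (triangles) and HCC 3 (squares). HCC 2 lies nearest 0 for most of the lists with large medians, as for xenobiotic P450s (-1.27 against -3.08 and -2.69), while fatty acid oxidation is alike on the 3 arrays.

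Markers of other liver cells were counted in the same way. In bulk tissue, fewer cells of a type and less RNA per cell cannot be told apart. Sinusoidal endothelium, the fenestrated lining that clears waste from portal blood, had 1 risen and 10 fallen of 20, with a median of -0.99 and omission counts 5, 4, 7, 11, 14 and 9, and the list's mean log2 level ranged 7.53 to 7.58 on control and 6.47 to 6.98 on HCC arrays. Its scavenger receptor Stab2 read 630.1, 507 and 631 in control against 15.2, 94.5 and 25.2 in HCC, a difference of -3.53 ± 0.48 (SE, adjusted p = 0.00954). Fcgr2b, an Fc receptor, read 662, 686 and 698 in control against 190.4, 284 and 144 in HCC, a difference of -1.70 ± 0.23 (SE, adjusted p = 0.00954), and Mrc1 fell by 1.91 (adjusted p = 0.00742). Lyve1 read 813, 806 and 1072 in control against 139, 570.0 and 285 in HCC, and its -1.59 ± 0.48 (SE, adjusted p = 0.0678) did not pass. Plxnc1 was the member that rose, by 0.76 (adjusted p = 0.034). Of 32 general vascular genes 0 rose and 4 fell (median -0.0115, with omission counts 3, 3, 4, 4, 6 and 5), a share near the 11.6% of all genes lower. They included Kdr, the main VEGF receptor, at 684, 636 and 592 in control against 106, 228 and 112 in HCC, a difference of -2.06 ± 0.28 (SE, adjusted p = 0.00976). Clec14a, Adgrl4 and Eng, the other 3, fell, with differences of -1.13, -0.82 and -0.75. The call held whichever 1 array was left out for Mrc1, Clec14a, Adgrl4 and Eng. The call was lost for Stab2 and Kdr (without control 1 or 2, adjusted p up to 0.0556), Fcgr2b (without control 2, adjusted p up to 0.0552) and Plxnc1 (without control 1, 2 or 3 or HCC 1 or 3, adjusted p up to 0.12).

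Kupffer cells are the resident macrophages of the sinusoid. Of 27 macrophage genes 1 rose and 5 fell, beside 10.9% and 11.6% of all genes. Their median was -0.16 and their omission counts were 2, 1, 2, 6, 7 and 4. Mean log2 levels of the list were 7.68 to 8.72 on control and 7.47 to 7.94 on HCC arrays. The fallen genes included Clec4f, the defining Kupffer lectin, at 1642, 1342 and 1998 in control against 139, 544 and 318 in HCC, a difference of -2.43 ± 0.48 (SE, adjusted p = 0.0221), and Cd163, at 187, 145 and 243 in control against 16.4, 59.7 and 42.6 in HCC, a difference of -1.96 ± 0.35 (SE, adjusted p = 0.0178). Cd5l fell by 2.33 (adjusted p = 0.0343) and Cd14 fell by 1.91 (adjusted p = 0.0103). Cd68, a marker of macrophages of any origin, overlapped at 281, 194 and 571 in control against 469.9, 230.4 and 351 in HCC, with a difference of 0.0857 (adjusted p = 0.92) that turned negative without control 2 (-0.24) or HCC 1 (-0.15). Itgax, of dendritic cells and recruited macrophages, rose from 21.5, 19.0 and 26.9 to 119, 56.6 and 82.0, a difference of 1.36 ± 0.24 (SE, adjusted p = 0.0164). The highest control was control 3 for Clec4f, Cd163, Cd5l, Cd68 and the chemokine Ccl6 (1398, 1171 and 3287 against 388, 431 and 308 in HCC, a difference of -2.19 ± 0.41 (SE, adjusted p = 0.0189)). Calls that ended were those of Clec4f (without control 1, 2 or 3 or HCC 3, adjusted p up to 0.0838), Cd163 and Itgax (without control 1, 2 or 3, adjusted p up to 0.0767), Cd5l (without control 1, 2 or 3 or HCC 1 or 3, adjusted p up to 0.0908), Cd14 (without control 2, adjusted p up to 0.0578) and Ccl6 (without control 1 or 2 or HCC 3, adjusted p up to 0.063).

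Genes of stellate cells and myofibroblasts went in both directions, with 5 risen and 6 fallen of 26, beside 10.9% and 11.6% of all genes. The list's median was 0.0164, with omission counts 3, 3, 6, 11, 13 and 6. Lrat, which stores vitamin A as retinyl ester and marks quiescent stellate cells, read 146, 167 and 184 in control against 14.2, 9.71 and 9.28 in HCC, a difference of -2.74 ± 0.12 (SE, adjusted p = 0.00185). All 3 tumour arrays read under the 16 added before the logarithm. Colec11 and Ecm1 also fell, with differences of -2.51 (adjusted p = 0.00486) and -1.82 (adjusted p = 0.00328). Cygb, another stellate gene, rose by 1.14 (64.3, 60.7 and 67.8 against 234, 123 and 144, adjusted p = 0.0225), and Acta2, the actin of myofibroblasts and smooth muscle, by 0.65 (23.6, 21.2 and 25.2 against 63.5, 34.7 and 42.4, adjusted p = 0.0493). With 1 array removed at a time the call held for Lrat, Colec11 and Ecm1. The call ended for Cygb (without control 1, 2 or 3, adjusted p up to 0.0935) and Acta2 (without control 1, 2 or 3 or HCC 3, adjusted p up to 0.16).

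Matrix genes rose in part, beside 10.9% of all genes higher and 11.6% lower. Of 23 collagens 5 rose and 1 fell (median 0.31, with omission counts 1, 2, 1, 6, 8 and 4), and of 48 matrix glycoproteins, lysyl oxidases and proteases 11 rose and 4 fell (median 0.41, with omission counts 4, 3, 6, 23, 19 and 13). Col1a1, of fibrillar collagen, read 203, 321 and 187 in control against 818, 478 and 608 in HCC, a difference of 1.37 ± 0.27 (SE, adjusted p = 0.0228). The basement membrane collagens Col4a1 and Col4a2 rose by 0.96 (adjusted p = 0.00951) and 1.17 (adjusted p = 0.015), and Col14a1 fell by 1.49 (adjusted p = 0.014). Loxl1, a collagen and elastin cross-linking enzyme, read 68.6, 71.7 and 50.9 in control against 279, 229 and 279 in HCC, a difference of 1.81 ± 0.14 (SE, adjusted p = 0.00355). Mmp12, the macrophage elastase, read 13.3, 16.8 and 13.7 in control against 607, 89.0 and 105 in HCC, a difference of 2.70 ± 0.70 (SE, adjusted p = 0.045). Lum, a collagen-binding proteoglycan, read 42.8, 50.4 and 37.4 in control against 829.6, 127 and 242 in HCC, a difference of 2.41 ± 0.64 (SE, adjusted p = 0.0484), and Plat, tissue plasminogen activator, 33.3, 36.5 and 37.9 in control against 494, 217 and 195 in HCC, a difference of 2.50 ± 0.35 (SE, adjusted p = 0.00993). In the last 3 genes HCC 1 was the highest tumour array. Adamts1 fell by 1.15 (adjusted p = 0.00941). The call survived each single omission for Col4a1, Loxl1 and Adamts1. Calls were lost for Col1a1 (without control 1 or 3 or HCC 3, adjusted p up to 0.0901), Col4a2 and Col14a1 (without control 1, 2 or 3, adjusted p up to 0.0718), Mmp12 and Lum (without control 1, 2 or 3 or HCC 3, adjusted p up to 0.141) and Plat (without control 1 or 2, adjusted p up to 0.0559).

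Ductular genes were high on HCC 1. Of 22 cholangiocyte and ductular genes 7 rose and 1 fell, with a median of 1.27 but 2.33, 0.50 and 0.90 on HCC 1, 2 and 3 alone, and omission counts 1, 1, 3, 10, 9 and 7. Epcam, a progenitor and duct surface protein, read 131, 144 and 131 in control against 2631, 210.3 and 626 in HCC, a difference of 2.26 ± 0.87 (SE, adjusted p = 0.117). Krt19, the duct keratin, read 74.8, 62.3 and 53.6 in control against 2420.2, 59.1 and 343 in HCC, a difference of 2.35 ± 1.23 (SE, adjusted p = 0.222), with HCC 2 inside the control range. Spp1, osteopontin, read 23.8, 37.8 and 35.9 in control against 198, 49.7 and 66.5 in HCC, a difference of 1.13 ± 0.46 (SE, adjusted p = 0.134). None of these 3 passed. Among those that did, Tnfrsf12a, the TWEAK receptor of ductular expansion, read 60.5, 30.7 and 41.1 in control against 472, 365 and 297 in HCC, a difference of 2.72 ± 0.24 (SE, adjusted p = 0.00429). Ggt1, a glutathione hydrolase used as a marker of rat preneoplasia, read 44.2, 31.4 and 30.6 in control against 532, 104 and 171 in HCC, a difference of 2.18 ± 0.56 (SE, adjusted p = 0.0443). Ezr, which links actin to the membrane, and Sctr, the secretin receptor, rose by 2.52 (adjusted p = 0.0429) and 1.84 (adjusted p = 0.0173), and the anion exchanger Slc4a2 fell by 0.56 (adjusted p = 0.0212). Every omission of 1 array kept the call of Tnfrsf12a. Omitting 1 array ended the call of Ggt1 and Ezr (without control 1, 2 or 3 or HCC 3, adjusted p up to 0.141), Sctr (without control 1, 2 or 3, adjusted p up to 0.0775) and Slc4a2 (without control 1 or 2, adjusted p up to 0.0892).

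Erythroid genes fell in part, and lymphoid lists had medians near 0. Erythroid genes had 0 risen and 5 fallen of 14 (median -0.15, with omission counts 4, 4, 5, 5, 6 and 4), and mean log2 levels of 6.49 to 6.75 on control and 5.64 to 5.86 on HCC arrays. The globin Hbb read 3994, 5984 and 4074 in control against 377, 353 and 469 in HCC, a difference of -3.48 ± 0.20 (SE, adjusted p = 0.00252). Hba-a3 fell by 2.40 (adjusted p = 0.00397), the haem enzyme Alas2 fell by 2.06 (adjusted p = 0.00495) and the band 3 exchanger Slc4a1 fell by 1.50 (adjusted p = 0.0135). T and NK cell genes had 5 risen and 0 fallen of 29, beside 10.9% of all genes higher (median 0.084, range -1.41 to 1.60, with omission counts 0, 0, 1, 1, 11 and 0, where a 0 went with 6 to 8 genes at an unadjusted p under 0.05). Among the risen was the receptor chain Cd3g at 12.5, 22.9 and 21.3 in control against 128, 44.2 and 117 in HCC, a difference of 1.60 ± 0.36 (SE, adjusted p = 0.0319). Il2rg, Cd3d and Cd2 rose by 1.22, 0.50 and 0.44, on dim signals, while the cytotoxic markers Gzma and Nkg7 had differences of -1.11 (adjusted p = 0.204) and -0.31 (adjusted p = 0.237). B and plasma cell genes had 2 risen and 0 fallen of 14, near the 10.9% of all genes (median -0.00233, with omission counts 1, 0, 1, 1, 1 and 2, where a 0 went with 3 genes at an unadjusted p under 0.05), Jchain at 191, 45.9 and 72.5 in control against 422, 334 and 330.3 in HCC, a difference of 1.85 ± 0.45 (SE, adjusted p = 0.0387), and Blnk with a rise of 0.88 (adjusted p = 0.0273). Of 20 neutrophil and mast cell genes Hdc alone passed, under the 10.9% of all genes higher. The list's omission counts were 0, 0, 0, 0, 1 and 0, where a 0 went with 1 to 3 genes at an unadjusted p under 0.05. The mast cell markers Cpa3, Mcpt1 and Fcer1a read at most 53.7 on HCC arrays and 51.1 on controls. Omitting arrays 1 by 1 kept the call of Hbb, Hba-a3, Alas2 and Slc4a1. The threshold was missed for Cd3g, Cd3d and Cd2 (without control 1, 2 or 3 or HCC 1 or 3, adjusted p up to 0.133), Il2rg (without control 1 or 2 or HCC 1 or 3, adjusted p up to 0.151), Jchain (without control 2 or 3 or HCC 1, 2 or 3, adjusted p up to 0.119) and Blnk (without control 1, 2 or 3, adjusted p up to 0.0972).

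Other tissues that a liver sample could hold had few calls. The shares fallen among acinar and adipocyte genes lay near the 11.6% of all genes lower, and those risen lay under the 10.9% higher. Of 27 skeletal muscle genes none passed by limma (0 at an unadjusted p under 0.05, and 1 called with all 12 arrays in the fit), and the smallest adjusted p was that of Pvalb at -0.35 (adjusted p = 0.138). The list's mean log2 level was 6.86 on control 2 and 5.04 and 5.15 on controls 1 and 3, against 5.05 to 5.19 on HCC arrays. Of 22 pancreatic acinar genes 0 rose and 3 fell (with omission counts 0, 1, 0, 2, 3 and 1, where a 0 went with 4 to 5 genes at an unadjusted p under 0.05), namely Amy1, an amylase also made by rat liver, at 2488, 2872 and 2774 in control against 54.9, 827 and 68.7 in HCC, a difference of -3.99 ± 0.97 (SE, adjusted p = 0.0392), Cela1 with a difference of -2.73 and Cpb1 with a difference of -0.83. Of the acinar marker enzymes, Prss1 read at most 9.08, Cpa1 at most 30.0, Pnlip at most 33.0 and Cpb1 at most 52.3 on the 6 arrays. Cela1 was brighter, at 592, 766 and 540 in control against 264, 36.0 and 46.6 in HCC. Of 19 adipocyte genes 1 rose and 2 fell (with omission counts 0, 0, 1, 6, 4 and 5, where a 0 went with 5 genes at an unadjusted p under 0.05), with differences of -1.42 for Cidec, -0.89 for Pnpla2 and 0.78 for Fabp4. The call was lost for Amy1 (without control 1, 2 or 3 or HCC 1 or 3, adjusted p up to 0.128), Cela1 (without control 1, 2 or 3 or HCC 2 or 3, adjusted p up to 0.133), Cpb1 (without control 1 or 3, adjusted p up to 0.0615), Cidec (without control 1 or 2, adjusted p up to 0.0614) and Pnpla2 and Fabp4 (without control 1, 2 or 3, adjusted p up to 0.09).

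Interferon-stimulated genes rose in part, with 10 risen and 0 fallen of 33, a median of 0.44 (0.63, 0.36 and 0.41 on the 3 arrays alone) and omission counts 1, 1, 6, 8, 8 and 7. Isg15, a ubiquitin-like modifier, read 104, 87.4 and 90.2 in control against 547, 684 and 705 in HCC, a difference of 2.58 ± 0.12 (SE, adjusted p = 0.00204). Oasl and Mx1, of antiviral defence, rose by 1.95 (adjusted p = 0.0162) and 1.53 (adjusted p = 0.0104), and Usp18, which removes Isg15, by 1.52 (adjusted p = 0.0133). HCC 2 was not the lowest tumour array in any of these 4 genes. Of 10 MHC class II genes none passed by limma (0 at an unadjusted p under 0.05, 0 called with all 12 arrays in the fit and 3 without control 3), the smallest adjusted p being that of Ifi30, a lysosomal reductase of antigen processing, at 0.65 (adjusted p = 0.213). The list's median was 0.62, and its mean log2 level was 9.92 on control 3 and 7.95 and 7.79 on controls 1 and 2, against 8.82 to 9.71 on HCC arrays. Without control 3, limma gave 7 genes at an unadjusted p under 0.05. Cytokines and chemokines had 3 risen and 4 fallen of 46, under the 10.9% and 11.6% of all genes, with omission counts 1, 1, 2, 7, 10 and 4. Cxcl12, the homing chemokine, read 1737, 1596 and 1447 in control against 80.1, 237 and 97.3 in HCC, a difference of -3.52 ± 0.37 (SE, adjusted p = 0.00574). Il1a fell by 1.54 (adjusted p = 0.0147), and Ccl21, of lymphatics, rose by 0.72 (adjusted p = 0.0244). Leaving out any 1 array kept the call of Isg15 and Cxcl12. Calls that ended were those of Oasl, Mx1 and Usp18 (without control 1 or 2, adjusted p up to 0.0738), Il1a (without control 1, 2 or 3, adjusted p up to 0.0718) and Ccl21 (without control 1, 2 or 3 or HCC 1 or 3, adjusted p up to 0.0929).

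Cytosolic ribosomal proteins had 14 risen and 0 fallen of 36, with a median of 0.44 and omission counts 7, 4, 8, 17, 19 and 14. Rpl13a read 1971, 1893 and 1966 in control against 3803, 3499.8 and 4102 in HCC, a difference of 0.96 ± 0.0817 (SE, adjusted p = 0.00394). Rpl22, Rpl12 and Rpl19 rose by 0.98, 0.89 and 0.88 (adjusted p = 0.00446 to 0.011). Immediate early genes had 8 risen and 2 fallen of 29, with omission counts 4, 2, 4, 8, 11 and 6. Klf6 read 183, 179 and 222 in control against 939.8, 574 and 752 in HCC, a difference of 1.85 ± 0.19 (SE, adjusted p = 0.00569), and Maff rose by 1.25 (adjusted p = 0.0423), while the phosphatase Dusp1 fell by 2.64 (adjusted p = 0.0333). Genes of endoplasmic reticulum stress and the amino acid response had 3 risen and 5 fallen of 36, near the 10.9% and 11.6% of all genes, with omission counts 2, 1, 2, 5, 11 and 9. The hormone Fgf21 read 967, 697 and 272 in control against 12.6, 169 and 18.2 in HCC, a difference of -3.37 ± 0.85 (SE, adjusted p = 0.0427), Herpud1 fell by 1.98 (adjusted p = 0.029) and Atf3 rose by 1.14 (adjusted p = 0.0431). With 1 array removed at a time the call held for Rpl13a, Rpl19 and Klf6. The call ended for Rpl22 (without control 2, adjusted p up to 0.0558), Rpl12 (without control 1 or 2, adjusted p up to 0.0606), Maff (without control 1, 2 or 3 or HCC 1 or 2, adjusted p up to 0.139), Dusp1 (without control 1 or 2 or HCC 1 or 3, adjusted p up to 0.119), Fgf21 (without control 1, 2 or 3 or HCC 1 or 3, adjusted p up to 0.14), Herpud1 (without control 1, 2 or 3 or HCC 1, adjusted p up to 0.107) and Atf3 (without control 2 or 3 or HCC 1, 2 or 3, adjusted p up to 0.129).

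Clock genes, whose levels depend on the hour of killing, which the labels do not give, had 0 risen and 5 fallen of 18, with omission counts 2, 2, 4, 5, 8 and 3. Nr1d1, the clock repressor REV-ERB alpha, read 154, 178 and 182 in control against 33.8, 52.5 and 33.6 in HCC, a difference of -1.76 ± 0.15 (SE, adjusted p = 0.00419), and Usp2 223, 259 and 389.6 in control against 14.6, 45.2 and 22.8 in HCC, a difference of -2.84 ± 0.32 (SE, adjusted p = 0.0065). The output factors Hlf and Tef fell, with differences of -1.97 (adjusted p = 0.0187) and -0.89 (adjusted p = 0.0416). Iron handling had 0 risen and 4 fallen of 17, beside 11.6% of all genes lower, with omission counts 1, 1, 2, 1, 9 and 2. Hfe, the haemochromatosis protein, read 138, 140.1 and 135 in control against 48.8, 45.3 and 26.0 in HCC, a difference of -1.48 ± 0.18 (SE, adjusted p = 0.0072). Haptoglobin (Hp), Steap3 and the iron transporter Slc11a2 fell, with differences of -0.97, -0.85 and -0.53 (adjusted p = 0.0382 to 0.0494). The call survived each single omission for Nr1d1, Usp2 and Hfe. Calls were lost for Hlf and Tef (without control 1, 2 or 3 or HCC 3, adjusted p up to 0.126), Hp and Slc11a2 (without control 1, 2 or 3 or HCC 1 or 3, adjusted p up to 0.158) and Steap3 (without control 1 or 2 or HCC 1 or 3, adjusted p up to 0.13).

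To place the named genes along the DEN course, HCC was tested directly against cirrhosis, where 3492 of 14217 genes passed (24.6%), 1765 higher (12.4%) and 1727 lower (12.1%). Without 1 cirrhosis array the count was 1096 to 1236, and without HCC 1, 2 or 3 it was 4077, 5022 or 3000. Igf2 averaged 36.4 ± 5.23 in cirrhosis (SD, n = 3), and HCC was above it by 7.00 (adjusted p = 0.00323). H19 averaged 69.4 ± 0.524 in cirrhosis and 643 ± 457 in control, and HCC exceeded cirrhosis by 5.47 (adjusted p = 0.000669). Cdkn2a averaged 13.3 ± 3.19, with HCC above it by 3.85 (adjusted p = 0.000669). Cdh22, Meg3 and Afp were above cirrhosis by 6.03, 4.72 and 3.88 (adjusted p = 0.00258, 0.00767 and 0.0483). Gstp1 averaged 5904 ± 887 in cirrhosis, with HCC above by 0.55 (adjusted p = 0.0419). Akr1b8 averaged 727 ± 494, a difference of 1.68 that did not pass (adjusted p = 0.0637).

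By list, 28 above and 0 below cirrhosis passed of 38 mitosis genes and 21 above and 1 below of 27 replication genes. For the hepatocyte functions, 0 above and 27 below passed among 47 xenobiotic P450s and oxidases, 1 above and 14 below among 27 bile acid genes, 0 above and 38 below among 54 amino acid genes and 0 above and 26 below among 34 fatty acid oxidation genes. Both comparisons share the HCC arrays. Of 33 interferon genes 2 above and 4 below passed, no more than the shares of all genes (12.4% and 12.1%). Isg15 averaged 298 ± 26.7 in cirrhosis and HCC was above by 1.07 (adjusted p = 0.00534), while Usp18 averaged 396 ± 45.0 and differed by 0.19 (adjusted p = 0.59). Among other named genes whose difference from cirrhosis did not pass were Nqo1 (1334 ± 79.9 in cirrhosis, difference -0.062 ± 0.18, adjusted p = 0.838), Alas2 (38.6 ± 5.01, -0.25 ± 0.10, 0.133), Lpin1 (307 ± 24.2, -0.92 ± 0.32, 0.0878) and Fgf21 (51.4 ± 9.41, -0.24 ± 0.73, 0.845). Jchain and Ccl21, both above control in HCC, were below cirrhosis, with differences of -0.73 (adjusted p = 0.0101) and -1.26 (adjusted p = 0.00967).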

How the data were processed

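Total RNA of liver or tumour, 12 samples in groups of 3, was hybridised to Affymetrix Rat 230 2.0 arrays of 1 colour. The values are linear intensity per probe set as deposited by the authors. MAS5 and RMA are named in the submitters' processing notes with no role or order, and which of them set the scale is unknown. Of 31099 probe sets, 57 were controls, 20826 had 1 annotated gene, 436 had several and 9780 had none. The brightest probe set by mean log2 value of the 12 arrays stood for each of 14217 genes. HCC was compared with control, and separately with cirrhosis, on log2(intensity + 16) with limma 3.58.1 (R 4.3.3, lmFit and eBayes) over the 6 arrays of each comparison, with Benjamini-Hochberg adjustment over all genes. The 12-array fit was an alternative. The number of arrays limits the precision. Named genes were the 12 largest rises and falls, up to 4 called members per list by size, 1 of the opposite direction, and a set of liver and tumour genes. The largest rises and falls were taken among called genes whose groups did not overlap, passing over unnamed loci. Lists without a call gave the member with the smallest adjusted p. Members and the 46 lists were chosen with earlier results of these data known. Promoters were RefSeq sequences of GRCr8, matched by symbol.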

Additional observations from a re-analysis of the deposited data

Results flagged for a closer look

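RNA quality stood apart in the control probe sets, which no gene comparison uses. The 3' minus 5' difference of the Gapdh control averaged 2.31 ± 0.90 in HCC against 0.932 ± 0.0797 in control (log2, SD, n = 3 each), and that of the actin control 4.32 ± 0.51 against 2.54 ± 0.14. Both were marked because they lie above the control level in data outside the main measurement, each with the exact two-sided permutation p of 0.1 that is the smallest for 3 against 3 arrays.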

How the results depend on the processing

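The 3198 genes called between HCC and control became 5501 with all 12 arrays in the fit, 1334 with only differences of at least 1, and 535 to 4479 with 1 array left out. The 3492 called between HCC and cirrhosis became 5262 with all 12 arrays and 1096 to 5022 with 1 array left out. The list members called, 434, became 112 to 605 with 1 array left out. Deviations of same-numbered HCC and control arrays correlated at -0.13, 0.11 and -0.03, and those of differently numbered arrays at -0.16 to 0.20. With 3 arrays per group, these values cannot decide whether the replicate numbers pair the samples. With the replicate number as a block, 1492 genes passed between HCC and control (1461 of them among the 3198), 1931 between HCC and cirrhosis and 249 list members. Under the block 71 of the 181 named calls were lost. Of the uncalled named genes, 3 changed sign. Ccnd1 (-0.11) was 0.061 with the mean of all probe sets, 0.033 after quantile normalization, and -0.285 to 0.0247 with 1 array left out, above 0 without control 2 (0.0019) or HCC 3 (0.0247). Cd68 (0.0857) was -0.24 to 0.50 with 1 array left out, below 0 without control 2 (-0.24) or HCC 1 (-0.15). Hnf4a (0.04) was -0.54 with the mean of all probe sets, -0.046 with equal medians, and -0.14 to 0.20 with 1 array left out, below 0 without control 3 (-0.031) or HCC 2 (-0.14). The cause of these changes was not tested. All 181 called named genes kept their sign with 1 array left out, as they must where the groups do not overlap. The call was kept in all 6 such fits by 57 of them. In the fit of every annotated probe set, 11 of the 181 had no probe set called, and none had one called the opposite way.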

Other observations

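Below the 12 largest rises, genes not yet named were picked after their values were seen. Anxa2 and S100a11, which act together at membranes in calcium-dependent repair, rose: Anxa2 read 224, 206 and 239.8 in control and 3718, 1167 and 1326 in HCC (2.92 ± 0.45, adjusted p = 0.0126), and S100a11 read 256, 251 and 314 in control and 4853, 1186 and 2137 in HCC (3.01 ± 0.50, adjusted p = 0.0148). Pvt1, the noncoding RNA beside Myc, read 40.5, 55.0 and 34.1 in control and 363, 308 and 352 in HCC (2.60 ± 0.15, adjusted p = 0.00252), with means of 278 in hepatitis and 65.1 in cirrhosis. Isyna1, which makes inositol phosphate, read 76.0, 50.8 and 63.1 in control and 414, 439 and 548 in HCC (2.61 ± 0.16, adjusted p = 0.00252). Egln3, a prolyl hydroxylase induced by low oxygen, read 9.51, 10.9 and 14.0 in control and 599, 164 and 99.9 in HCC (3.09 ± 0.61, adjusted p = 0.0224). Tes, a focal adhesion protein, read 123, 101 and 230.1 in control and 1652, 1054 and 967 in HCC (2.93 ± 0.34, adjusted p = 0.00694). Among the falls beyond the 12 largest was Rdh7, a retinol dehydrogenase, at 2626, 2453 and 2418 in control and 91.6, 401 and 106 in HCC (-3.84 ± 0.53, adjusted p = 0.00993), and Nrep, at 1723, 2232 and 1159 in control and 138, 128 and 73.3 in HCC (-3.72 ± 0.32, adjusted p = 0.00394).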
